A study of Mus musculus with 4 samples.

Results

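Cerebellins, neurexins and delta receptors form the adhesion complex that builds and holds the synapse between granule cells and Purkinje cells of the cerebellum. Granule cells secrete cerebellins into the synaptic cleft, where they join a neurexin on the granule cell axon to a delta-type glutamate receptor on the Purkinje cell spine. Cbln1 is the main cerebellin of granule cells, and Cbln3, which is made by the same cells, is secreted in complexes with it. Neurexins are made as long alpha forms and short beta forms from separate promoters of the same gene. The 7 genes described here were taken by name from this pathway: the ligands Cbln1, Cbln2, Cbln3 and Cbln4, the presynaptic receptors Nrxn2 and Nrxn3, and Grid1, which encodes the delta receptor GluD1. They were looked up in a list of RREB1 binding sites that names 1932 genes, and 2 of the 7 had a row in it, Cbln3 and Nrxn3.

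RREB1 is a zinc finger transcription factor. Its binding was mapped by ChIP-seq in whole cerebella of 2 mice aged 3 weeks, 1 female and 1 male, of genotype Tg(PCP2-Rreb1/3V5)20/J, with an input library of the same replicate number and sex for each. All 4 libraries carry the transgene, in which the Purkinje cell promoter PCP2 drives the neuronal Rreb1 transcript with 3 V5 tags. The V5 antibody is directed against the tag. No library from mice without the tag was used here, so what the antibody pulls down without the tag could not be judged. The deposited list merges the peaks of both animals into 1933 rows. A row gives the mm10 position, the class of region (promoter, intron, intergenic and so on) and how far the nearest transcription start is, with a minus sign for upstream. It holds no count, score or replicate, so read depth, peak height and the spread between the animals are unknown. No difference below was tested. The peaks carry numbers in order of position up to 3043, and 1110 numbers have no row. The highest number is slightly above the study's own count of peaks, so a number without a row need not be a peak. Each gene is named once, and the rows are sorted alphabetically by the text of the region class. If only 1 row per gene was kept, further peaks of that gene, also of another class, would not be seen. Whether this was so was not tested.

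The 2 genes with a row differed in where the peak lay. Cbln3 had a promoter peak at position 55884369 of chromosome 14, 113 bp upstream of its start. Nrxn3 had a peak deep inside the gene, at position 89703121 of chromosome 12, in intron 14 of 19 of the transcript NM_172544 and 109362 bp upstream of the start NM_001252074. The other 5 genes had no row. A share of 2 in 7 is 28.6%, and 7.54% of the 21774 protein-coding RefSeq genes had a row. With so few genes the share is a description only.

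The sequences around both peaks are shown because they differ in the E-box, the short motif bound by bHLH factors such as those of the NeuroD family. Each is the + strand of mm10 over 201 bp centred on the listed position, chr14:55884269-55884469 for Cbln3 and chr12:89703021-89703221 for Nrxn3. Capitals mark every match to the general E-box CANNTG, which reads the same on both strands.
Cbln3: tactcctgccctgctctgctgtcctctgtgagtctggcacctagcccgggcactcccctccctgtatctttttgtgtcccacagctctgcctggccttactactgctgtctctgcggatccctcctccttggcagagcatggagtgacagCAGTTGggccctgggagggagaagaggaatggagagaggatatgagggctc
Nrxn3: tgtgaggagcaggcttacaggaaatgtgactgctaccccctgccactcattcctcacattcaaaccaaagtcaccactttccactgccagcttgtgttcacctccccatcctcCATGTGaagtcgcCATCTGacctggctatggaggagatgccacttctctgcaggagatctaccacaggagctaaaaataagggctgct
The NeuroD form of the motif is CATCTG, or CAGATG on the other strand, and it is one of the matches that CANNTG finds. The Cbln3 window held 1 general E-box, CAGTTG, 50 bp from the listed position, and no CATCTG. Within 500 bp on either side of the Cbln3 peak there was still no CATCTG. The Nrxn3 window held CATGTG 13 bp and CATCTG 26 bp from the position, the latter as part of the longer form CCATCTG. Of the 1184 listed peaks with a CATCTG within 500 bp, 26.4% had one nearer than that of Nrxn3. Over the same 201 bp, CATCTG was found at 35.1% of all 1932 listed peaks on assembled chromosomes, at 52.9% of the 631 intron peaks and at 8.79% of the 671 promoter peaks. RefSeq promoters, cut to the place that the Cbln3 window has relative to the start, held it in 11.9% of 32851 cases. A general E-box was found at 48.7% of promoter peaks and 86.4% of intron peaks. Cbln3 thus lacked a motif that most promoter peaks also lacked, and Nrxn3 had one that about as many intron peaks had as not. CCAAACCA, 8 letters of the element from which RREB1 was first known, was in neither window. It was found on either strand at 0.725% of listed peaks and in 0.962% of the promoters. The G and C content was 59.2% at Cbln3, where the median promoter peak had 61.2%, and 51.7% at Nrxn3, where the median intron peak had 53.7%.

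**Figure D1:**
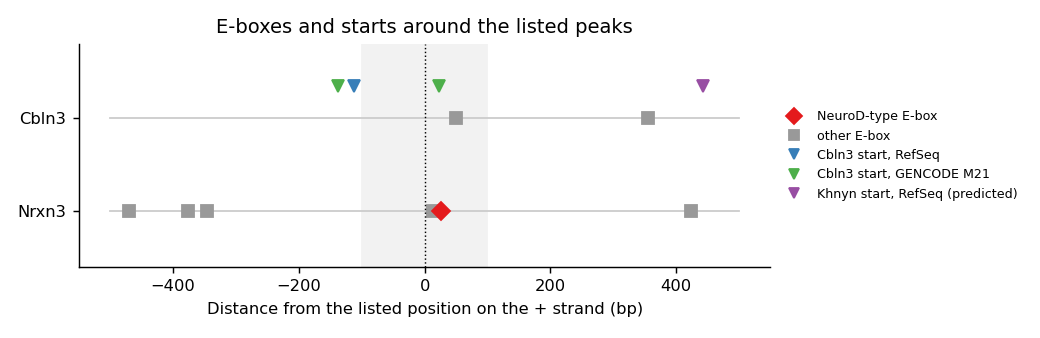
E-boxes and transcription starts around the 2 listed peaks, by distance in bp from the listed position on the + strand; red diamonds are CATCTG, grey squares other E-boxes, triangles are starts near the Cbln3 peak, and the band spans 100 bp on each side. A red diamond lies inside the band for Nrxn3 (26 bp), and Cbln3 has none.

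The Cbln3 peak lies between 2 genes that point away from each other. Cbln3 occupies 55878920 to 55884256 on the minus strand, and Khnyn, which encodes a protein with KH and NYN domains, begins at 55884942 on the plus strand. The peak is 113 bp upstream of the former start and 573 bp upstream of the latter, or 443 bp from the start of predicted Khnyn transcripts. The table reflects both genes. It names Cbln3 as the nearest gene but takes the promoter label from NR_138134, a transcript of Khnyn. A promoter label taken from another gene than the one named was found for 70 of 669 promoter rows (10.5%). In all, 72 of 671 promoter rows (10.7%) lay between divergent curated starts no more than 1000 bp apart. Which of the genes the peak belongs to was not tested. In the GENCODE M21 annotation the nearest Cbln3 start is at 55884392, which puts the peak 23 bp downstream of it. The distance to Cbln3 therefore changes sign with the annotation, whereas the place of the peak at the 5′ end of Cbln3 does not. Among the 671 promoter rows, 398 were closer to their start than Cbln3, against a median of 86 bp. No further number is missing between this peak and that of Mphosph8, 783.8 kb away, and 2 numbers are missing on the other side, over 772.5 kb up to the peak of Jph4.

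**Figure D2:**
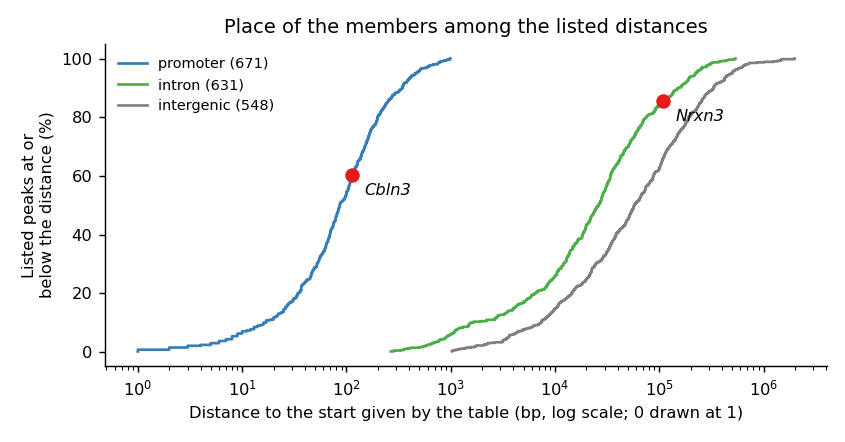
Cumulative share of listed peaks by distance to the start given in the table, in bp on a log axis, for promoter, intron and intergenic peaks; red points are Cbln3 and Nrxn3. Cbln3 is near the middle of the promoter curve (113 bp) and Nrxn3 high on the intron curve (109362 bp).

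The Nrxn3 peak was far from every curated start of the gene. Nrxn3 spans 1612 kb, from 88722701 to 90334935 on the plus strand, and RefSeq lists 51 transcripts with 15 starts. The peak lies 60.8% of the way along it, in an intron of 443.3 kb, 170.1 kb from the exon before and 273.2 kb from the exon after. The curated starts of the long transcripts lie 908617 and 749731 bp before it, and the next curated start, NM_001252074, lies 109362 bp after it. A start of 5 predicted transcripts is nearer, 23015 bp after the peak. In the GENCODE M21 annotation the nearest Nrxn3 start is 109362 bp after the peak, and a start of another gene is nearer. Among the 631 intron rows, 539 (85.4%) were closer to their start, and their median was 26.2 kb. The table gives 1 row for Nrxn3, and 2 numbers without a row fall on each side of it. Those after it lie between the peak and that of Dio2, a stretch of 862.1 kb of which 73.3% is Nrxn3. Those before it lie within 2.66 Mb, of which 36.8% is Nrxn3. Nrxn3 thus held 1 listed peak and room for up to 4 that are not listed. A listed peak inside the gene body was found for 4.45% of all protein-coding genes and for 42.1% of the 95 whose length was between 0.5 and 2 times that of Nrxn3, so one in a gene of this size was common. At the mean density of the list Nrxn3 would hold 1.8 numbers.

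**Figure D3:**
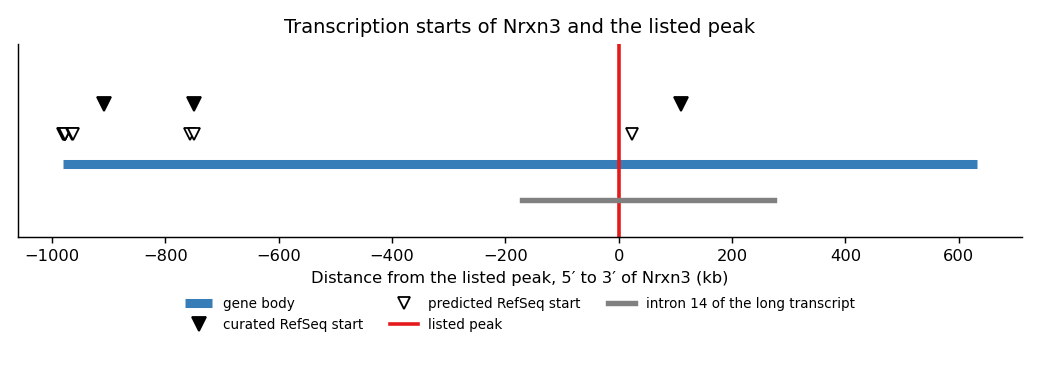
Map of Nrxn3 by distance in kb from the listed peak (red line), with the gene body in blue, intron 14 in grey, curated starts as filled and predicted starts as open triangles. The peak has the long transcripts' starts at least 749.5 kb before it, a predicted start 23.02 kb after it and a curated one 109.4 kb after it.

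**Figure D4:**
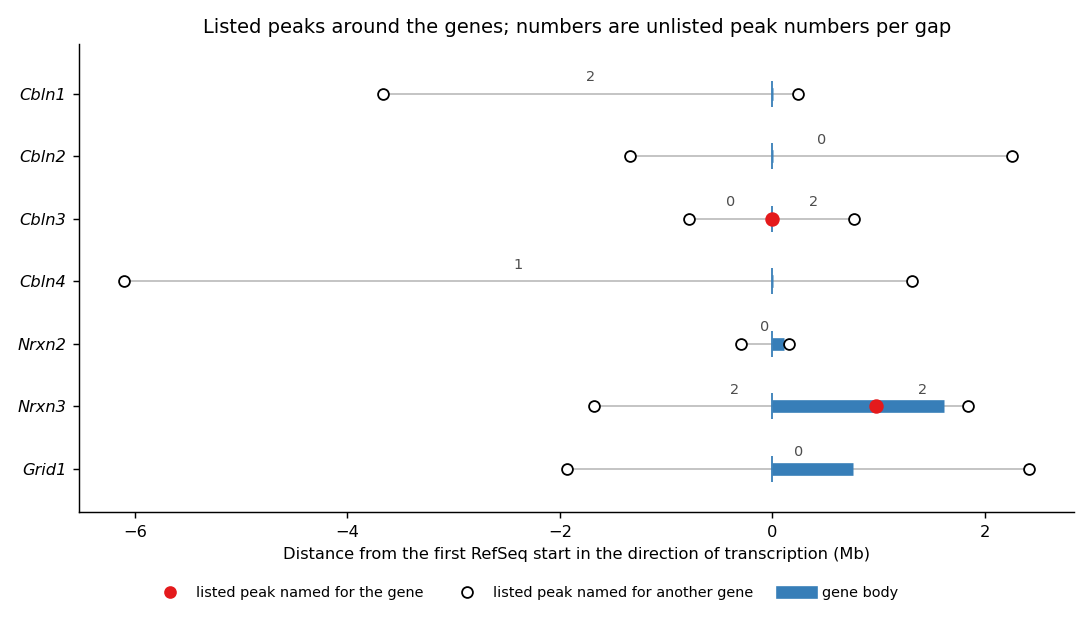
Listed peaks around the 7 genes, by distance in Mb from the first RefSeq start in the direction of transcription; blue bars are gene bodies, red points peaks named for the gene, open points the next listed peaks, and each figure counts the peak numbers without a row in that gap. Cbln2, Nrxn2 and Grid1 lie in gaps with 0 missing numbers.

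For 3 of the 5 genes without a row, no numbered peak can lie in the gene at all. Cbln2, a cerebellin of other brain regions, lies on chromosome 18 between the consecutive numbers 1399 (Fbxo15) and 1400 (Rttn), which are 3.6 Mb apart. Nrxn2 lies on chromosome 19 between numbers 1409 (Snx15) and 1410 (Slc22a12). The latter peak was the nearest to any of the 5 genes, 39.05 kb beyond the 3′ end of Nrxn2 and 153.5 kb from its start. Grid1 lies on chromosome 14 between numbers 853 (Vstm4) and 854 (Ghitm), over 4.35 Mb. Its 763.4 kb would hold 0.852 numbers at the mean density of the list, 1 per 0.896 Mb, and it held none. Of 20849 protein-coding genes with a listed peak on either side, 64.6% lay between consecutive numbers, and so did 44.7% of the 360 of a length near that of Grid1.

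The other 2 genes without a row lie in gaps that contain missing numbers. Cbln1 lies on chromosome 8, from 87468853 to 87472592, with the nearest listed peak 238.5 kb from its start, that of Gm10637. Between the numbers 2773 (Gm10637) and 2776 (Aktip), 2 are missing over the 3.9 Mb that hold Cbln1. Cbln4, which is expressed mainly outside the cerebellar cortex, lies on chromosome 2 with 1 missing number over 7.41 Mb and the nearest listed peak 1312 kb from its start. Where the missing numbers lie within these gaps could not be read from the list. The study states that 1932 genes were assigned to peaks by proximity, as many as the list names. If these are the same genes, no missing number was assigned to Cbln1 or Cbln4, wherever it lies in the gap. How the list came to name each gene once is not given in the sources used here. Of genes between 0.5 and 2 times the length of Cbln1, 1.13% had a listed peak inside, and of those near the length of Cbln4 1.7%. The promoter of Cbln4, 300 bp around its RefSeq start, held 1 CATCTG, the promoter of Cbln3 none and the 3 of Nrxn3 none, against 17.2% of all RefSeq promoters.

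Partners of the complex were looked up in the same way, in lists by role. Of 81 genes in 6 lists, 15 (18.5%) had a row, beside 7.54% of all protein-coding genes. The lists were not matched to all genes in length, and a row counted at any distance from the start. In the shares by length given above, longer genes more often held a listed peak. Of the 15 peaks, 4 were within 5 kb of a start, as were 851 of the 1932 listed peaks on assembled chromosomes (44.0%). CATCTG lay within 100 bp of 4 of the 15 (26.7%), beside 35.1% of all listed peaks. Of secreted ligands, 2 of 13 had a row. The nearer was that of Nptx1, a neuronal pentraxin that gathers glutamate receptors, 24816 bp past the start, at 119523004 of chromosome 11. Presynaptic receptors had 1 of 12. Postsynaptic receptors and neurexin ligands had 4 of 27, with a promoter peak at Adgrl1, which encodes the adhesion receptor latrophilin-1. It lay 318 bp before the start, at 83899780 of chromosome 8. The neuroligins Nlgn1, Nlgn2 and Nlgn3, which bind neurexins from the postsynaptic side, had none. Delta receptor scaffolds had 2 of 11, among them Ptpn4, a tyrosine phosphatase that binds delta receptors, with a peak 600 bp before the start, at 119837671 of chromosome 1.

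Inside the cell, cytoplasmic partners of neurexins had 4 of 11 genes with a row. The peak nearest to a start was that of Lin7c, a scaffold that joins neurexins through CASK, 6159 bp before it, at 109884719 of chromosome 2. Splicing regulators of neurexins had 2 of 7. Khdrbs2, of the family that sets the alternative segment on which cerebellin binding depends, had a promoter peak 34 bp before the start, at 32172688 of chromosome 1, the closest in all 6 lists. Nova1 had the other, 851 bp upstream. In these lists the listed promoter peaks were thus at a receptor, a phosphatase and 2 splicing factors. In the cerebellin, neurexin and delta receptor genes the listed promoter peak was at Cbln3. Promoter peaks without a row could not be seen.

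**Figure D5:**
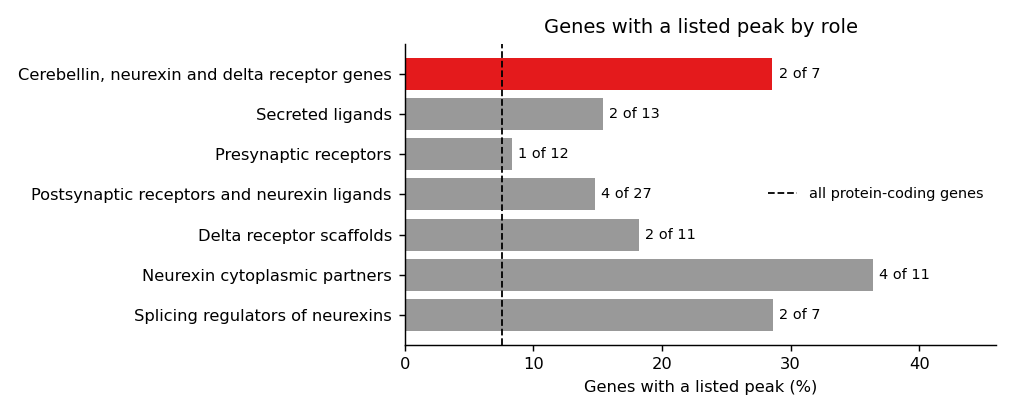
Share of genes with a listed peak, in %, for the 7 genes (red) and 6 lists of partners by role (grey), with counts beside the bars; the dashed line is the share of all protein-coding genes, 7.54%. Every bar is above the line, the lowest being presynaptic receptors with 1 of 12 (8.33%). No bar was tested against the line, and gene length was not matched.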

How the data were processed

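ChIP with a V5 antibody and matched input were sequenced from 2 cerebella. Per the study's methods, the authors trimmed reads with fastp, aligned to mm10 with Bowtie2 and filtered with Sambamba. Peak calling used MACS3 (q-value 0.05), and overlapping peaks were merged with bedtools. Per the file headers, HOMER then annotated the merged peaks. The deposited table was used as it stands. Its values are positions and distances in bp, with no depth, so no interval for depth could be given. Of its positions, 1911 are 1 bp and 22 are 2 bp wide.

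Genes were matched by Entrez number, and coordinates were read on GRCm38, which shares those of mm10, with RefSeq and GENCODE M21 transcripts. Motifs were searched on both strands within 100 bp of each position, with Python 3.11.15. The search and the distances were tested on simulated data. Promoters are those of RefSeq (GRCm38.p6), which were matched for 3 of the 7 genes (Cbln3, Cbln4 and Nrxn3) with 5 promoters. Protein sequences were not used here. No set test was run.

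The members and lists were chosen with earlier results of these data known. Genes were named by a rule: all 7 genes, the partner nearest to a start in each list, and listed neighbours. Some results under this rule are not reported here. Nova1 and Khnyn were named after their values were seen. Annotation, distance limits, window and motif letters were varied. The GENCODE, curated-start and 10 kb settings were chosen after seeing the data.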

Additional observations from a re-analysis of the deposited data

How the results depend on the processing

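The count of 2 genes with a row held when peaks were reassigned to the nearest RefSeq start and with gene bodies extended by 10 kb. It was 1 with only peaks inside the gene body (Nrxn3), within 100 kb or within 5 kb of the start or at promoters (Cbln3), and with the nearest GENCODE M21 start (Cbln3). The distance of the Cbln3 peak was -113 bp in RefSeq and 23 bp in GENCODE M21. That of Nrxn3, measured to starts of Nrxn3 only, was -23015 bp once predicted RefSeq starts were included. It kept its value in the other annotations, although in GENCODE M21 a start of another gene was nearer. Of the Cbln3 and Nrxn3 peaks, 1 held CATCTG at every window, 0 held CAGCTG and 2 held CANNTG. Partner genes with a row numbered 15, of which 12 had it within 100 kb and 4 within 5 kb of a start. Counted instead by any listed peak inside the gene body, partner genes numbered 8, and 1 of these, Tenm4 (named after its values were seen), has no row of its own. No paired analysis was possible because the merged list holds no value of a single library, and leaving out a replicate was not possible for the same reason. Absence of a row cannot be told apart from a site below the authors' threshold.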

Other observations

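Short lists of marker genes were also looked up in the table. Over all protein-coding genes 7.54% had a row. Of 8 granule cell markers, 4 had one, namely Cbln3, which is also among the 7 genes described above, Neurod1, Fat2 and Etv1. The peaks of Neurod1 and Cbln3 were at promoters, that of Fat2 was in an exon 50014 bp from the start, and that of Etv1 was intergenic, 533674 bp from the start. Of 8 Purkinje cell markers, the cell type in which the transgene promoter is active, 0 had a row, and of 5 markers of molecular layer interneurons 0 had one. Bergmann glia had 1 of 4 and oligodendrocytes 1 of 3. These lists are small and were not tested, and they do not measure expression. They do not show in which cells the tagged protein was bound. By V5 immunofluorescence the study found the transgene in Purkinje cells only.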
